A study of Homo sapiens with 39 samples.

Results

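MV-4-11 is a human acute myeloid leukemia line, and its untreated expression profile was set here against those of 6 other acute myeloid leukemia lines. Its members are the 3 vehicle arrays of the line, chosen by title from the 39 arrays of the series. The comparison arrays are the 15 vehicle arrays of the other lines, with 3 each for NOMO-1, OCI-AML3 and OCI-M1 and 2 each for Kasumi-1, KG-1a and Sig-M5. All 18 vehicle cultures had been kept for 24 h with DMSO. A further 21 arrays came from the same 7 lines after 24 h with SY-1425 (tamibarotene), an agonist of the retinoic acid receptor alpha, added at 100 nM for a final 50 nM. These were used only to see whether a difference found without the drug was also there with it. Each line descends from the leukemia of 1 person, so a line stands for itself and not for a subtype of the disease. Nothing in the labels says that replicates were separate cultures, so p-values measure only the spread between these arrays.

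MV-4-11 carries a fusion of the chromatin regulator KMT2A to AFF1 and an internal tandem duplication in the receptor tyrosine kinase FLT3, as general knowledge of the line has it. KMT2A fusions keep the HOXA genes and their cofactor MEIS1 switched on, a program that blocks the maturation of myeloid progenitors, and active FLT3 signals through STAT5 and MAPK. NOMO-1 carries a KMT2A fusion too, OCI-AML3 an NPM1 mutation, Kasumi-1 the RUNX1::RUNX1T1 fusion, KG-1a is of early progenitor type, OCI-M1 comes from an erythroleukemia and Sig-M5 from a monocytic one.

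Expression was measured on Affymetrix PrimeView arrays as log2 RMA intensities, in which a step of 1 is a 2-fold change. RMA is a background correction, normalization and probe-set summary. Array medians lay between 5.03 and 5.19. The files give no detection call, so a low value is printed as measured and is not read as absence. The 3′ minus 5′ difference of the beta-actin control probe sets, which grows as RNA degrades, was 0.07 to 0.17 on the MV-4-11 arrays, −0.02 to 0.15 in NOMO-1, KG-1a and OCI-AML3, 0.11 to 0.56 in OCI-M1, 0.30 to 1.18 in Kasumi-1 and 0.81 to 1.89 in Sig-M5. Single genes were followed under other settings only for a set of 145 named genes. Where the text mentions 1 of these and its call ended without Sig-M5 and Kasumi-1, this is marked there or in the closing paragraph. Calls of other list members and markers, such as CSF2RB, CEBPE and VCAN, were not followed in this way.

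The second MV-4-11 array stood apart from the other two. It differed by at least 2-fold from the mean of replicates 1 and 3 at 452 genes (2.49%), higher at 444 of them and lower at 8. Its deviation from its group mean ran with that of the third arrays of NOMO-1 and OCI-AML3 (r of 0.70 and 0.60 across genes), and the part of array handling in this was not tested. The main counts are also given without it.

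A gene was called higher or lower in MV-4-11 when its adjusted p was under 0.05 in limma's moderated test, with Benjamini-Hochberg adjustment over 44988 probe sets of a single gene symbol, and its difference from the unweighted mean of the other 6 line means was at least 1 on the log2 scale. Each of 18132 genes was represented by its brightest probe set. In MV-4-11, 715 genes were higher (3.94% of those tested) and 753 were lower (4.15%). Without replicate 2 the counts were 769 higher and 1010 lower. A mean over 6 lines can be set by 1 of them, so a stricter rule was applied as well. A gene counted as outside the range when MV-4-11 differed in 1 direction from each of the 6 lines, with the largest of the 6 p-values under 0.05 after adjustment, and lay at least 2-fold from the nearest line. By this rule 92 genes (0.507%) were above every other line and 55 (0.303%) below every other line, and 99 and 52 without replicate 2. With the beta-actin 3′ minus 5′ difference as a term in the fit, these counts were 78 and 39. With no minimum distance and no test, the 3 MV-4-11 arrays lay above all 15 others at 531 genes (2.93%) and below all of them at 226 (1.25%). Counted by probe set, 1570 were higher (3.49%) and 1643 lower (3.65%) than the mean of the other lines. The standard errors come from arrays within lines and leave out the spread between lines.

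Several leukocyte and granule genes were bright in MV-4-11, but not all of the markers chosen for these cells. The leukocyte genes CD53 and LCP1 had line means of 10.6 and 11.8 in MV-4-11, and lay between 9.40 and 10.6 and between 8.87 and 12.9 in the other lines. SPI1, another leukocyte marker, was at 6.50 in MV-4-11 and between 4.85 and 6.89 in the other lines. Of the granule genes, ELANE, PRTN3, AZU1 and CTSG were at 12.5, 11.4, 11.6 and 12.1 in MV-4-11. MPO, the remaining granule marker, was at 6.52 and was called lower (−2.57). The 4 measured B cell markers lay between 3.32 (EBF1) and 8.79 (PAX5) in MV-4-11, and the 6 T and NK cell markers between 3.39 (CD3D) and 7.06 (CD7). None of these 10 was called higher in MV-4-11. CD3D was lower, with KG-1a at 12.3, and was at −0.02 and not called without KG-1a. In the longer lists, 2 of 19 T and NK markers were higher, CD4 (1.91) and NKG7 (1.80), and CD3D alone was lower. Of 17 B lymphoid markers IGLL1 (1.71) was higher and CD24 (−2.61) lower. Of all genes, 3.94% were higher and 4.15% lower. PTPRC, which encodes the pan-leukocyte antigen CD45, went against the label. Its arrays read 4.66, 5.84 and 4.97 in MV-4-11, against a lowest value of 4.98, a median of 7.40 and a highest of 8.77 on the other 15 arrays. Only Kasumi-1, with a mean of 5.11, was as low, and 5 of the 6 PTPRC probe sets were lower in MV-4-11 (difference −2.005 ± 0.30 SE, limma adjusted p = 7.97e-05).

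The 3 named genes farthest above every other line are better known from tissues other than blood. ZNF185, which encodes a LIM-domain protein bound to actin, read 10.01, 9.70 and 9.84 on the MV-4-11 arrays, against a lowest value of 3.37, a median of 4.06 and a highest of 4.41 on the other 15. HMX2, a homeobox transcription factor of inner ear and hypothalamus development, read 10.11, 9.82 and 10.19 in MV-4-11, against 3.25, 3.73 and 4.75. NDN, an imprinted gene expressed from the paternal allele that encodes the growth suppressor necdin, read 8.28, 8.04 and 8.41, against 2.63, 2.85 and 3.08. For each of these genes the MV-4-11 arrays formed a tight group far above all 15 others, and the other 6 lines lay together near the bottom of the scale. MV-4-11 exceeded its nearest line 45.4-fold at ZNF185, 40.7-fold at HMX2 and 38.96-fold at NDN. These are ratios of measured intensities, and where the dim side is background they understate the difference in RNA. The largest of the 6 limma p-values, then adjusted over all probe sets, was 1.09e-12, 1.55e-11 and 7.28e-12 for these genes.

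The promoters of these genes and of TRIM32, a gene far below every other line, are shown because MV-4-11 lay so far from every other line at them. Each stretch runs from 250 bases before to 50 after the annotated start in RefSeq (GRCh38.p14), 5′ to 3′ on the gene's strand, with CG dinucleotides in capitals. The letters CG read the same on both strands.
ZNF185, chrX:152914182-152914481, plus strand: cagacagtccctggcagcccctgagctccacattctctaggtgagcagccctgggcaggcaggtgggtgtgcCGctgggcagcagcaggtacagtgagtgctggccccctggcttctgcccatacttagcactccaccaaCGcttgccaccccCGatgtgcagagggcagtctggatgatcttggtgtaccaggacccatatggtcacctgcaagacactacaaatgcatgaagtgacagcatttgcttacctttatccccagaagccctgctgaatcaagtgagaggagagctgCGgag
HMX2, chr10:123147886-123148185, plus strand: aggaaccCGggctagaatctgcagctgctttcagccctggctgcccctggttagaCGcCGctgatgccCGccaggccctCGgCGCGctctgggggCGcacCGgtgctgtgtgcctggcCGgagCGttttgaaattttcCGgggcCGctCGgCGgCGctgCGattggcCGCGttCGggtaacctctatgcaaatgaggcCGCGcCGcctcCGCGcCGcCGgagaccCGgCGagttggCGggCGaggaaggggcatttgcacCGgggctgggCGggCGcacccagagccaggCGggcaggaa
NDN, chr15:23687256-23687555, minus strand: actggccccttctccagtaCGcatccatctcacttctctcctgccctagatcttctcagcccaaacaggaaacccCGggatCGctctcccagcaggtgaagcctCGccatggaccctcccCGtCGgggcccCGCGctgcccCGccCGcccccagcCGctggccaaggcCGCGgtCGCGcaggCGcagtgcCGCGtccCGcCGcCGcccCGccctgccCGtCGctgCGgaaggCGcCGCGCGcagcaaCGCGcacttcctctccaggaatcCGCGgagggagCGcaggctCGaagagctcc
TRIM32, chr9:116687055-116687354, plus strand: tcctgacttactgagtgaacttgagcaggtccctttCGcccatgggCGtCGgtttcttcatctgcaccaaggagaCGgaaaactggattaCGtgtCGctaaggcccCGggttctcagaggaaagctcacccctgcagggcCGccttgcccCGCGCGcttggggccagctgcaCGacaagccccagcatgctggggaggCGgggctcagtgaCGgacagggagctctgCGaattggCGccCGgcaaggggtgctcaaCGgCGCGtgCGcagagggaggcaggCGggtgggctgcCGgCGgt
The dinucleotide occurs 35 times each in the HMX2 and NDN stretches, 24 times in that of TRIM32 and 4 times in that of ZNF185. Among 27305 RefSeq promoters of this length, 95.8% hold at least 1 CG, the median is 14, and 13.96% hold 35 or more. HMX2 and NDN thus had CG-rich promoters and ZNF185 a CG-poor one, and all 3 lay far above the other lines. Only 64 of the 92 genes above every line had an entry among these promoters, so no base composition is given for the set.

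Signaling and lipid genes came next. PKIB, an inhibitor of the cyclic AMP-dependent protein kinase, read 9.43, 9.78 and 9.34 in MV-4-11, against 2.66, 3.29 and 5.46 as lowest, median and highest of the other arrays. APOC2, the cofactor of lipoprotein lipase, was among the brightest signals at 12.42, 12.20 and 12.39 in MV-4-11, against 4.67, 5.74 and 8.26. TIFAB, an inhibitor of TRAF6 signaling in blood progenitors, read 9.07, 8.93 and 9.46, against 2.40, 3.23 and 5.10. The nearest line was OCI-M1 for PKIB and NOMO-1 for APOC2 and TIFAB, and the gap to it was between 18.6-fold and 18.7-fold for these genes. All 5 PKIB probe sets were higher in MV-4-11.

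GAS6, the ligand of the TYRO3, AXL and MERTK receptor kinases, read 10.15, 9.95 and 10.25 in MV-4-11, against 5.22, 5.46 and 6.36. BCL2L10, a member of the BCL2 family of apoptosis regulators, read 8.26, 8.23 and 8.38, against 3.60, 3.94 and 4.23. Neither gene overlapped the other lines, and both probe sets of each were called. Beside HORMAD1, the remaining genes of the 14 named as farthest above were TMEM233, the potassium channel gene KCNK10, HPD, which encodes a dioxygenase of tyrosine breakdown, the brain ubiquitin ligase gene TRIM9 and CD72, a co-receptor of B cells. The gaps of these 5 genes to the nearest line ran from 9.66-fold for TRIM9 to 15.9-fold for TMEM233. A second probe set of CD72 showed no such difference (−0.08), and the lowest of the 3 TRIM9 probe sets differed by 0.97.

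HORMAD1, a protein of the meiotic chromosome axis, read 7.32, 8.01 and 7.27 in MV-4-11, against 3.03, 3.29 and 3.71. MEIOB, a meiotic recombination factor, read 6.12, 6.80 and 6.05, against 3.11, 3.31 and 4.27. PIWIL4, a binder of germline small RNAs, read 9.67, 9.99 and 9.51, against 4.01, 6.67 and 7.79. In none of them did an MV-4-11 array reach down to another line. The homeobox gene PITX1 was at 10.52, 10.34 and 11.00 in MV-4-11, against 4.96, 5.47 and 8.92, with OCI-M1 next. DLX2, another homeobox gene, read 7.93, 7.55 and 7.72, against 2.81, 4.46 and 5.801. Its other probe sets did not show it, with a lowest difference of −0.18. MEIOB, PIWIL4, PITX1 and DLX2 were singled out after their values were seen. A gene with only an open-reading-frame name lay among the farthest above as well and is counted but not named.

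Over all 92 genes above every line, the median gap to the nearest line was 2.82-fold and 30 genes had a gap of at least 4-fold. The other lines averaged under 5 on the log2 scale at 40 of the 92. The nearest line was NOMO-1 for 26 genes and OCI-AML3 for 19. Further probe sets of these genes numbered 109, of which 104 had the same sign and 58 passed the same rule. CLU lay just inside the limit with a gap of 1.01 on the log2 scale and IL2RA just outside it with 0.99.

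**Figure D1:**
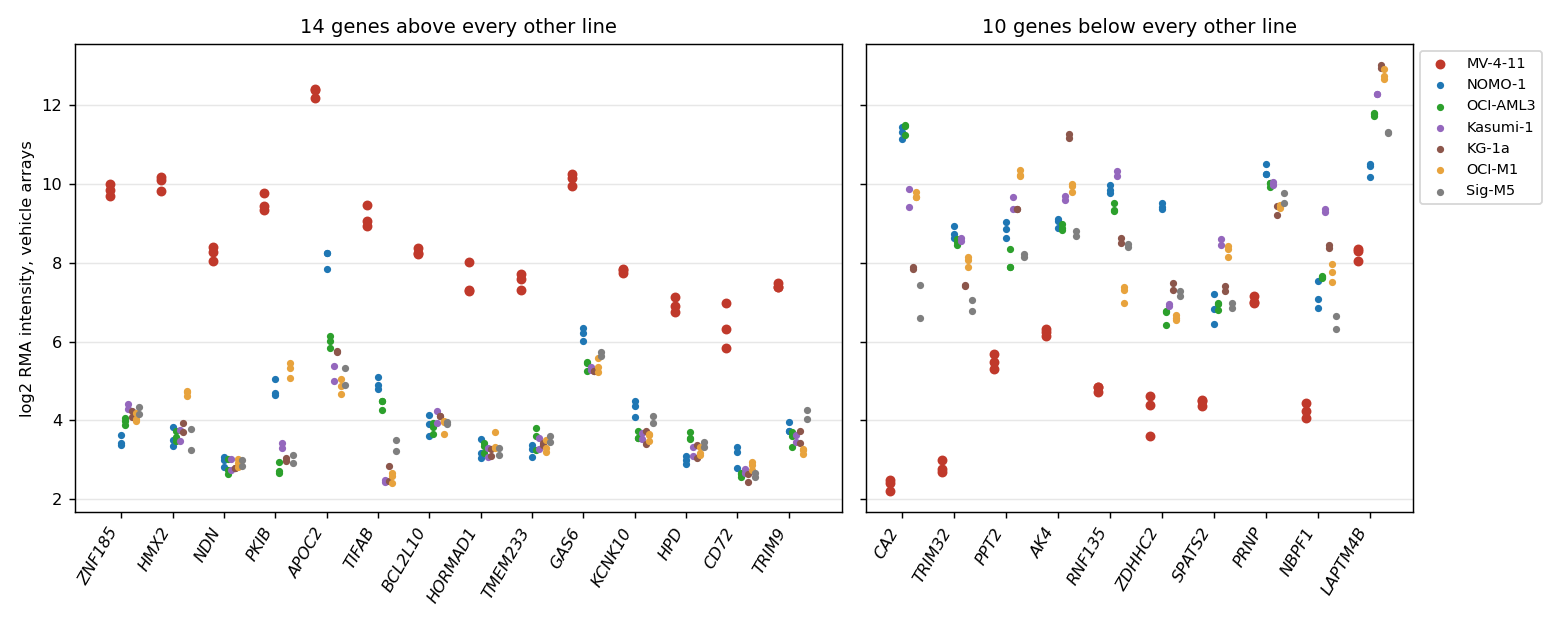
Log2 RMA intensity on each of the 18 vehicle arrays for the 14 genes farthest above and the 10 genes farthest below every other line, with MV-4-11 as large red points left of the other 6 lines. The MV-4-11 points are separated from all others in each column, from 9.66-fold at TRIM9 to 45.4-fold at ZNF185 above the nearest line, and from 4.44-fold at LAPTM4B to 25.2-fold at CA2 below it.

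Among the genes below every other line, CA2 led by a wide margin. This cytosolic carbonic anhydrase, which interconverts carbon dioxide and bicarbonate, read 2.20, 2.42 and 2.48 in MV-4-11, against a lowest value of 6.60, a median of 9.80 and a highest of 11.50 on the other 15 arrays. TRIM32, a ubiquitin ligase mutated in a muscular dystrophy, read 2.99, 2.68 and 2.77, against 6.77, 8.46 and 8.94. The other lines were spread over several log2 units at CA2, from Sig-M5 at 7.02 to OCI-AML3 at 11.41, and MV-4-11 lay 25.2-fold below Sig-M5. For TRIM32 the gap to Sig-M5 was 17.2-fold. Its other 2 probe sets were called lower too, with smaller differences (−2.31 and −2.34). The largest p of the 6 limma contrasts, then adjusted over all probe sets, was 5.94e-10 for CA2 and 2.71e-11 for TRIM32.

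The other genes of this group had gaps of 4.44-fold to 5.87-fold. RNF135, a ubiquitin ligase that activates the viral RNA sensor RIG-I, read 4.85, 4.72 and 4.85 in MV-4-11, against 6.99, 9.33 and 10.34. PRNP, the prion protein gene, read 6.98, 7.16 and 7.01, against 9.22, 9.92 and 10.52. LAPTM4B, a lysosomal membrane protein that belongs to published leukemia stem cell signatures, read 8.35, 8.04 and 8.30, against 10.18, 11.80 and 13.02. MV-4-11 was the lowest line in each, though LAPTM4B was still well above the dim end of the scale. AK4, a mitochondrial adenylate kinase, PPT2, a lysosomal thioesterase, ZDHHC2, a palmitoyltransferase, and SPATS2 followed. Other probe sets of PPT2, at −0.92 and −0.98, were not called, nor was a further probe set of AK4 (−0.90). NBPF1 completed the 10, and because it belongs to a family of near-identical copies its probe set may read several of them.

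Over all 55 genes below every line, the median gap was 3.03-fold and 11 genes had a gap of at least 4-fold. Sig-M5 was the nearest line for 21 of them. At 36 of the 55 genes MV-4-11 was under 5 on the log2 scale. Their 84 further probe sets had the same sign in 82 cases, and 19 passed the same rule. With Sig-M5 and Kasumi-1 left out, 103 genes lay below the remaining 4 lines. TENT4A was just inside the limit at −1.001 and ABL2 just outside at −0.97.

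The list members that follow are read against the shares of all genes, 3.94% higher and 4.15% lower, and against a median difference of 0.03 over all genes. Of the HOXA cluster and its cofactors only 4 of 15 were measured here by a probe set of a single symbol, and HOXA9 and HOXA10 were not analysed here. Among the 4, PBX3 and MEIS1 were higher, MEIS2 was lower and HOXA2 was not called. The MEIS2 call rested on 1 of 5 probe sets (−1.52) and ended when they were averaged (−0.54). MEIS1, the DNA-binding partner of HOX proteins in leukemia, read 7.51, 7.44 and 7.29 in MV-4-11, against a lowest value of 3.08, a median of 3.57 and a highest of 6.69. PBX3, a further partner, read 10.08, 10.34 and 10.12, against 2.97, 7.47 and 10.52. MV-4-11 was the highest line at MEIS1, followed by NOMO-1 at 6.55 and OCI-AML3 at 6.04, while the remaining lines lay between 3.24 and 3.54. At PBX3 it lay within the arrays of NOMO-1, whose mean was 10.23. In the HOXB cluster 0 of 10 genes were higher and HOXB2 alone was lower, at 3.03, 3.07 and 2.99 in MV-4-11, against 3.15, 8.87 and 10.81.

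Genes reported elsewhere as bound by KMT2A fusion proteins included 7 higher and 1 lower of 19 measured, with a median difference of 0.67. FLT3, the receptor kinase mutated in this line, read 9.11, 10.23 and 9.04, against 3.68, 5.92 and 9.38. MV-4-11 was above the mean of the others by 3.64 ± 0.25 (SE, limma adjusted p = 1.76e-08), but overlapped NOMO-1, whose mean was 8.65 and from which it did not pass the test. RUNX2, a transcription factor of plasmacytoid cells and bone, differed by 2.17, and LGALS1, which encodes galectin, by 2.14. LGALS1 was at 0.64 and lost its call without Sig-M5 and Kasumi-1. CPEB2, a regulator of mRNA translation, was above every line at 6.66, 6.35 and 6.63 in MV-4-11, against 4.36, 4.73 and 5.53. A further probe set each of CPEB2 (0.35) and RUNX2 (0.11) was not called. Of 13 measured genes of the KMT2A complex, Polycomb and the fusion partners 0 were higher, and the fusion partner gene MLLT3 (−1.91) and the Polycomb gene EED (−1.13) were lower. The EED call came from 1 of 4 probe sets and ended with the probe sets averaged (−0.70), without OCI-M1 (−0.81) and without the third MV-4-11 array (−0.997).

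Several receptors of myeloid cytokines were higher. Of 21 progenitor antigens and growth factor receptors 6 were higher and 2 lower. CSF1R, the receptor of macrophage colony-stimulating factor, was above every other line at 8.03, 7.52 and 7.95 in MV-4-11, against 5.43, 5.91 and 6.43. A further CSF1R probe set differed by 0.75 and was not called. IL3RA, the interleukin-3 receptor alpha chain, read 8.16, 7.89 and 8.37, against 5.04, 5.86 and 7.44. CSF2RB, CSF2RA and CLEC12A were higher by 1.92, 1.79 and 1.51. CD38, an ectoenzyme gained with differentiation, read 3.36, 3.40 and 3.79 in MV-4-11, against 2.90, 6.54 and 8.46, and OCI-M1 was lower still with a mean of 3.16. KIT, the stem cell factor receptor, read 4.54, 4.82 and 4.25, against 2.53, 8.01 and 10.87. The other lines divided at KIT, with OCI-AML3, KG-1a and Sig-M5 below MV-4-11 and Kasumi-1, OCI-M1 and NOMO-1 far above it, and its call ended without Kasumi-1 (−0.76) or OCI-M1 (−0.94). CD34, the stem cell antigen, differed by −0.98 at its brightest probe set and was not called. Another of its probe sets was called lower (−1.28), and 8 of 32 alternative settings called the gene lower.

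**Figure D2:**
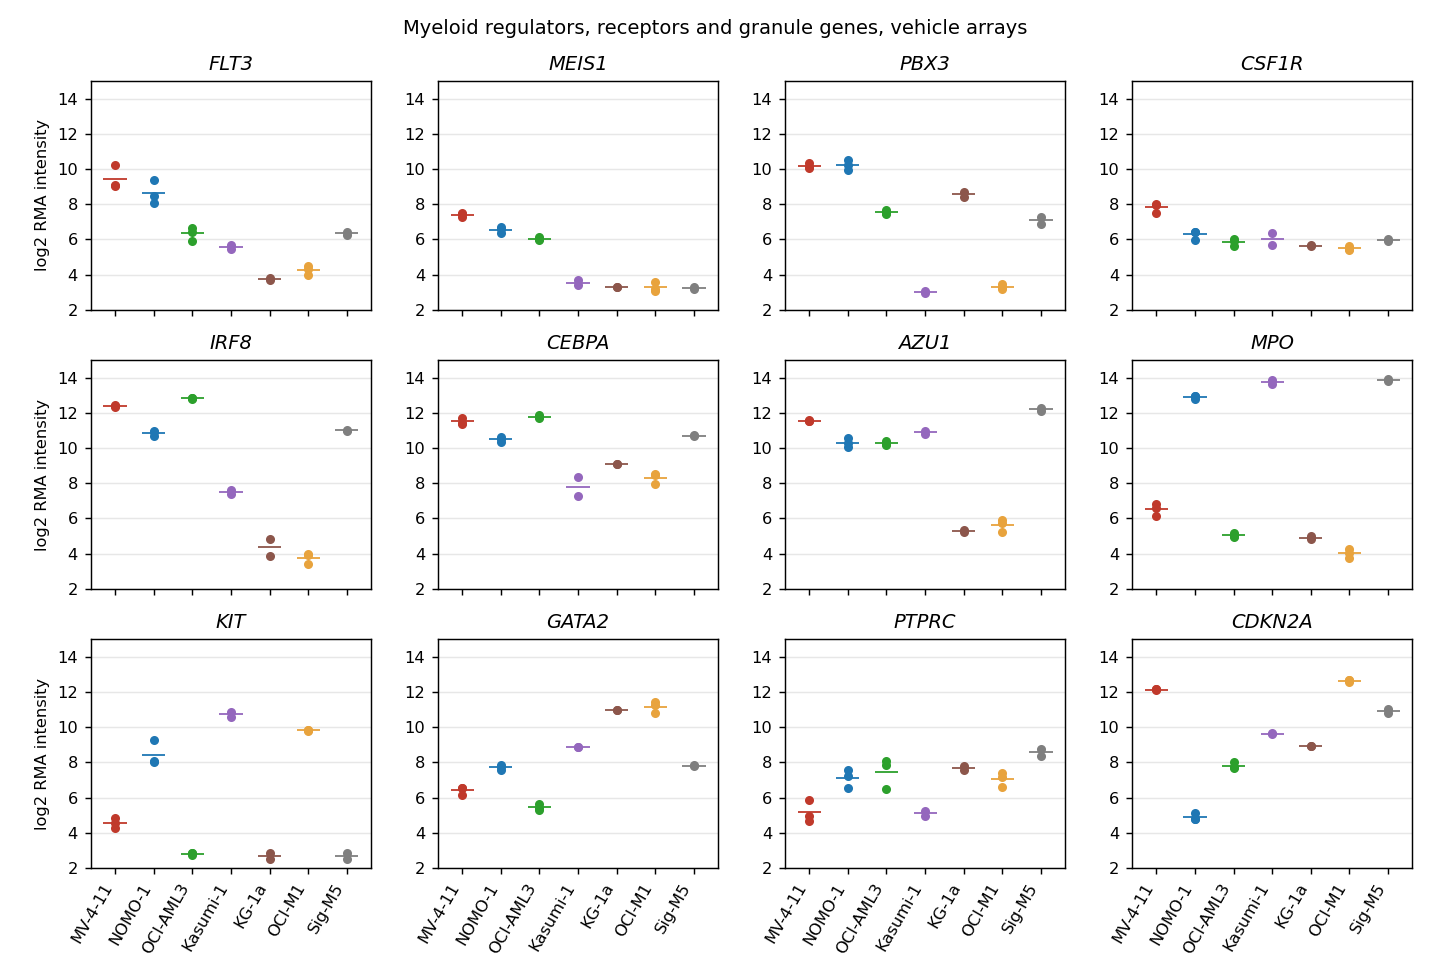
Log2 RMA intensity of 12 regulators, receptors and granule genes on each vehicle array, with MV-4-11 leftmost, points for arrays and a bar for the line mean. MV-4-11 is highest at FLT3, MEIS1 and CSF1R, while at MPO its mean of 6.52 lies between NOMO-1, Kasumi-1 and Sig-M5 above and OCI-AML3, KG-1a and OCI-M1 below.

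Among 21 hematopoietic transcription factors 8 were higher and 2 lower, with a median of 0.59. IRF8, the factor of monocyte and dendritic cell fate, read 12.45, 12.39 and 12.34 in MV-4-11, against 3.43, 10.70 and 12.84. CEBPA, the factor of granulocyte and monocyte fate, read 11.45, 11.38 and 11.70, against 7.25, 10.34 and 11.88. At both, OCI-AML3 was somewhat brighter than MV-4-11, and OCI-M1, KG-1a and Kasumi-1 were far dimmer. RUNX3 was at 10.08, 9.89 and 10.39, against 4.003, 7.89 and 9.73, and no other array reached it. SPI1, the PU.1 gene, differed by 0.59 and was not called. EGR1, HLX, ID2, GFI1 and ETV6 were higher, while CEBPE, a factor of late granulocytes, was lower by −1.66 on the log2 scale.

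The factors of the erythroid and megakaryocyte lineages ran the other way, with 0 of 10 higher and 4 lower and a median of −0.73. GATA2, a factor of stem cells and mast cells, read 6.53, 6.13 and 6.56 in MV-4-11, against 5.32, 7.88 and 11.42. GFI1B read 4.37, 4.28 and 4.40, against 4.08, 4.62 and 10.02. KG-1a and OCI-M1 held the highest values at both genes. At GATA2 only OCI-AML3 was below MV-4-11, and at GFI1B it lay among the other 4 lines, which were all low. TAL1 (−1.43) and NFE2 (−1.61) were the other members called, and each lost its call without OCI-M1, at −0.83 and −0.98. Of 12 erythroid markers 2 were lower, XK and RHAG, and 0 were higher.

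Primary granule proteins, made at the promyelocyte stage, split within the list. Of 11 measured primary granule genes 6 were higher and 2 lower, with a median of 1.58. AZU1, the azurocidin gene, read 11.58, 11.54 and 11.55 in MV-4-11, against 5.23, 10.25 and 12.30. PRTN3, the proteinase gene of the same cluster, read 11.41, 11.24 and 11.42, against 3.55, 10.13 and 12.92. MPO, the myeloperoxidase gene and the usual marker of these granules, read 6.62, 6.14 and 6.80 in MV-4-11, against 3.75, 5.19 and 13.94. The serine protease genes were thus bright in MV-4-11 and below at least 1 other line, while MPO was dimmer than in NOMO-1 (12.90), Kasumi-1 (13.77) and Sig-M5 (13.87). In bulk RNA, fewer granule-forming cells and less RNA per cell cannot be told apart. The MPO difference of −2.57 was −0.20 and not called without Sig-M5 and Kasumi-1. Of 15 secondary and tertiary granule genes 1 was higher and 2 lower.

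Monocyte and macrophage markers were also divided, with 5 higher and 3 lower of 22. TYROBP, the adaptor of activating myeloid receptors, read 11.63, 11.55 and 11.65 in MV-4-11, against 6.42, 7.41 and 11.71, level with NOMO-1 alone. LYZ, the lysozyme gene, read 13.32, 13.28 and 13.35, against 3.75, 12.14 and 13.74. CST3, the cystatin C gene, exceeded all other arrays at 11.83, 11.64 and 11.78, against 4.49, 9.58 and 11.24. MNDA, a nuclear antigen of myeloid cells, was low at 2.98, 3.94 and 3.29, against 2.60, 8.08 and 11.85, and VCAN and S100A12 were lower by −2.36 and −1.42. CD14, a surface marker of mature monocytes, differed by −0.67 and was not called. ITGAM, another, differed by −0.58 at its brightest probe set and was not called, while its other 2 probe sets were called lower (−1.17 and −1.67). In the NADPH oxidase list of 4 measured genes, NCF4 was higher by 1.91 and CYBB, the membrane subunit, lower by −2.46.

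Of 29 interferon-induced genes 9 were lower, 1 was higher and 19 were not called, with a median of −0.51. RSAD2, an antiviral enzyme, read 4.37, 4.29 and 4.28 in MV-4-11, against 4.04, 4.66 and 9.83. IFI44 read 3.00, 3.30 and 3.32, against 3.05, 3.51 and 7.83. KG-1a and OCI-M1 alone held the high values at both, as the means of 9.62 and 8.63 at RSAD2 and of 6.61 and 7.69 at IFI44 show, and MV-4-11 was level with NOMO-1, OCI-AML3 and Sig-M5. The call at RSAD2 ended without KG-1a (−0.96) and that at IFI44 without OCI-M1 (−0.95) or with its 6 probe sets averaged (−0.68). IFITM1, the exception, read 12.33, 12.21 and 12.34, against 5.29, 8.84 and 13.53.

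Targets of MAPK signaling, of which 2 were higher and 4 lower of 16, did not move together. EGR1 was higher by 1.79 and DUSP6 by 1.01, while SPRY2, PHLDA1, SPRED1 and CCND1 were lower, SPRY2 by −1.76. With the probe sets of each gene averaged, EGR1 (0.79) and PHLDA1 (−0.47) lost their calls. Without OCI-AML3, PHLDA1 (−0.93) and SPRED1 (−0.95) lost theirs, and SPRED1 did so as well without Sig-M5 (−0.99) and without the third MV-4-11 array (−0.93). Among 14 STAT5 targets SOCS2 (1.61) was higher and ID1 (−2.11) lower, and 3 were higher without the second MV-4-11 array. SOCS2 lost its call without Sig-M5 (0.76), without OCI-AML3 (0.96) and without Sig-M5 and Kasumi-1 (0.88).

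Of 12 measured cell cycle inhibitors and tumor suppressors 5 were higher and 0 lower. CDKN2A, which encodes the p16 and ARF proteins, read 12.17, 12.09 and 12.15 in MV-4-11, against 4.75, 8.93 and 12.70. OCI-M1 was brighter and Sig-M5 followed, whereas NOMO-1 was the lowest at 4.89, which gives an ordering of OCI-M1, MV-4-11, Sig-M5, Kasumi-1, KG-1a, OCI-AML3 and NOMO-1. CDKN1A, the p21 gene induced by p53, read 10.45, 10.20 and 10.45, against 5.91, 8.93 and 10.58. CDKN2D, CDKN1B and the transcription factor gene WT1 were the others called, WT1 not without NOMO-1 (0.94). Of 16 BCL2 family genes on the list 3 were higher, 1 was lower and 12 were not called. BCL2L10, a family member that was not on this list, was above every other line and differed by 4.35 from their mean. The pro-apoptotic genes BAX (1.41) and BBC3 (1.26), which p53 also induces, were higher, and so was BIK (2.24), whereas BCL2A1 (−1.52), which protects from apoptosis, was lower. BAX (0.997), BBC3 (0.94) and BCL2A1 (−0.72) lost their calls with probe sets averaged, and BBC3 also without KG-1a (0.89) or Kasumi-1 (0.96). Of 24 genes of DNA replication and mitosis 0 were called in either direction, with a median of 0.10, and of 12 reference genes 0 were called.

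Enzymes and secreted factors added a few strong differences. ASS1, the enzyme of arginine synthesis whose loss makes cells depend on arginine, was above every other line at 11.14, 11.01 and 11.24 in MV-4-11, against 5.21, 6.41 and 9.63. PDGFA, a growth factor chain, was above every line too, at 8.24, 7.53 and 7.65, against 3.88, 4.63 and 6.84, and 3 of its 4 probe sets were called. NOD2, a sensor of bacterial cell walls, read 7.32, 6.62 and 7.01, against 2.97, 3.64 and 5.84. CXCL8, the neutrophil chemokine, was low at 5.50, 5.30 and 5.01, against 3.63, 8.37 and 9.98, with only KG-1a below it. RXRA, the partner of retinoic acid receptors, read 10.02, 9.79 and 10.39, against 6.31, 8.48 and 9.77, while RARA, the target of tamibarotene, differed by 0.42 at its brightest probe set and was not called. Its 10 probe sets disagreed, from −0.10 to 1.17, and 1 of them was called higher (1.17, limma adjusted p = 7.36e-07).

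Adhesion, antigen presentation and effector genes showed a mixed picture. Of 22 integrin and adhesion genes 3 were higher and 3 lower. ITGAL, the alpha chain of the leukocyte integrin LFA-1, read 12.23, 11.90 and 12.29 in MV-4-11, against 5.77, 8.25 and 11.40. CXCR4, the receptor that keeps blood progenitors in the marrow, read 10.86, 10.77 and 10.86, against 5.17, 9.28 and 11.75. No other line reached MV-4-11 at ITGAL, while NOMO-1 and OCI-AML3 were above it at CXCR4. ITGB7 was higher by 2.69 and ITGA6, ITGB1 and ICAM2 were lower, ITGA6 by −1.94. In MHC class II presentation, 2 genes were higher and 2 lower of 13. HLA-DRA read 9.85, 9.63 and 9.70, against 3.53, 7.80 and 13.57, below NOMO-1 (13.50) and OCI-M1 (12.64) and far above OCI-AML3, KG-1a and Sig-M5. HLA-DQA1 (−1.52) and HLA-DMB (−1.19) were not called without NOMO-1, at −0.53 and −0.32, nor was HLA-DQA1 with probe sets averaged (−0.69) or HLA-DMB without OCI-M1 (−0.87). Of 10 eosinophil, basophil and mast cell markers 3 were higher, FCER1A (2.27), RNASE2 (1.999) and PRG2 (1.40), and 0 were lower. RNASE2 was at 0.92 and not called without OCI-M1, and PRG2 was not called without Sig-M5 and Kasumi-1 (0.60), without Kasumi-1 (0.98) or without OCI-AML3 (0.94).

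**Figure D3:**
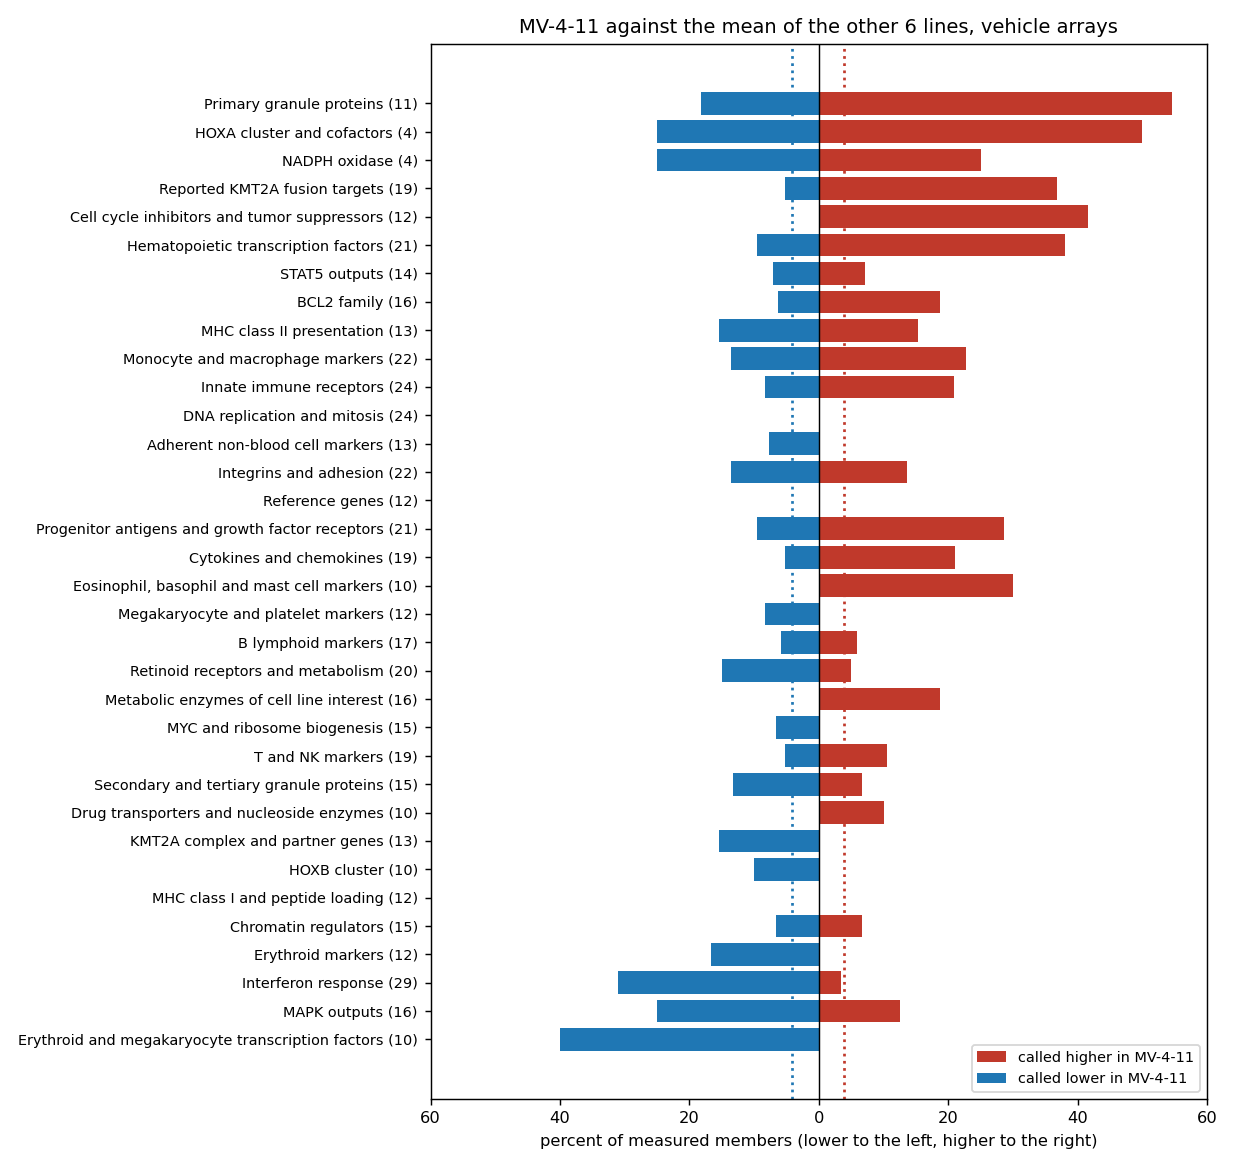
Percent of measured members of each gene list called higher (right, red) or lower (left, blue) in MV-4-11 than the mean of the other 6 lines, with the number measured in brackets and dotted lines at the shares of all genes. Primary granule genes have 6 of 11 members higher and erythroid and megakaryocyte factors 4 of 10 lower, against 3.94% and 4.15% of all genes.

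Set against each line in turn, MV-4-11 was nearest to OCI-AML3. Between them 1385 genes were called, 644 higher (3.55%) and 741 lower (4.09%) in MV-4-11, and their line means correlated at 0.962 across genes. NOMO-1, which shares a KMT2A fusion, followed with 2068 genes, of which 742 were higher (4.09%) and 1326 lower (7.31%) in MV-4-11. Kasumi-1 differed at 2517 genes, with 6.04% of all genes higher and 7.84% lower in MV-4-11, and KG-1a at 2529, with 6.84% higher and 7.11% lower. OCI-M1 differed at 3098 genes, with 7.87% higher and 9.22% lower, and Sig-M5 at 3870, with 11.0% higher and 10.3% lower. This order of the lines by number of calls held in each comparison that left out 1 array, except that Kasumi-1 and KG-1a changed places in some. Across genes the correlation of line means gave another order at the far end, with 0.945 for NOMO-1, 0.932 for Kasumi-1, 0.917 for KG-1a, 0.916 for Sig-M5 and 0.908 for OCI-M1. Sig-M5, with the most calls, also had the largest beta-actin 3′ minus 5′ differences (0.81 to 1.89), whose part in its count was not tested. Genes are not independent replicates, and the comparisons share the MV-4-11 arrays.

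The genes that most set MV-4-11 apart from OCI-AML3 differed by more than 6 log2 units. Higher were PKIB (6.74 ± 0.15 SE), GPR160, an orphan receptor (6.64 ± 0.18), SPINT2, a serine protease inhibitor (6.62 ± 0.13), and HMX2 (6.45 ± 0.16). SPINT2 and GPR160 were low in OCI-AML3, at 3.38 and 3.65, while SPINT2 was brighter in NOMO-1, Kasumi-1, KG-1a and OCI-M1 than in MV-4-11. Lower were CA2 (−9.04 ± 0.18), SLAIN1, a microtubule tip protein (−7.29 ± 0.17), DAPK1, a death-associated kinase (−6.12 ± 0.15), and RNASE1, a secreted ribonuclease (−6.04 ± 0.13). The 4 DAPK1 probe sets ranged from −4.60 to −0.12 against the mean of the other 6 lines.

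Genes at least 2-fold higher in MV-4-11 and in 1 other line than in all 5 remaining lines numbered 46 with NOMO-1, 21 with OCI-AML3, 16 with KG-1a, 12 with OCI-M1, 8 with Kasumi-1 and 6 with Sig-M5. With NOMO-1 the leaders were TRPM4, a calcium-activated cation channel, GPR183, an oxysterol receptor, and FGL2, a secreted fibrinogen-like protein. TRPM4 read 10.51, 10.50 and 10.50 in MV-4-11, with a NOMO-1 mean of 9.35 and no other line above 5.26. TREM2, a lipid receptor of macrophages, and THBD, thrombomodulin, led with OCI-AML3. TREM2 read 8.36, 8.26 and 8.45 in MV-4-11, with an OCI-AML3 mean of 8.76 and no other line above 5.25. TMEM163, a zinc transporter, led with KG-1a, at 6.32 in MV-4-11, 9.08 in KG-1a and no more than 4.35 elsewhere, followed by HCST, the DAP10 adaptor, and IGLL1, part of the surrogate light chain of pre-B cells. FCER1A, the alpha chain of the IgE receptor, led with OCI-M1. Genes at least 2-fold lower in MV-4-11 and 1 other line were most often shared with Sig-M5, in 19 cases, and least often with NOMO-1, in 5. The part of the large beta-actin 3′ minus 5′ differences of Sig-M5 (0.81 to 1.89) in its count was not tested. All these counts were taken over the 18132 genes, and no test was made of them.

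Genes of chromosome 19 were shifted upward in MV-4-11. RefSeq names of assembly GRCh38.p14 placed 1293 genes there, of which 95 were higher and 16 lower, with a median difference of 0.19. Among the 695 of them brighter than the median gene, the median difference was 0.38, against −0.15 for chromosome 4 and 0.17 for chromosome 16 at the ends of the range over the other chromosomes. The 3 MV-4-11 arrays gave 0.43, 0.29 and 0.46, and the median was 0.43 without replicate 2. It was also 0.43 on the tamibarotene arrays. The size depended on the line set against it, from 0.05 over KG-1a to 0.28 over Kasumi-1, 0.37 over OCI-AML3, 0.42 over OCI-M1, 0.52 over Sig-M5 and 0.57 over NOMO-1. KG-1a itself stood 0.28 above the mean of its own 6 counterparts. With genes split by promoter GC content into 3 equal groups from low to high, the chromosome 19 median was 0.45, 0.31 and 0.33, against −0.02, −0.02 and 0.03 for genes elsewhere. Copy number was not analysed here, and the pattern was picked after the values were seen, with no test.

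**Figure D4:**
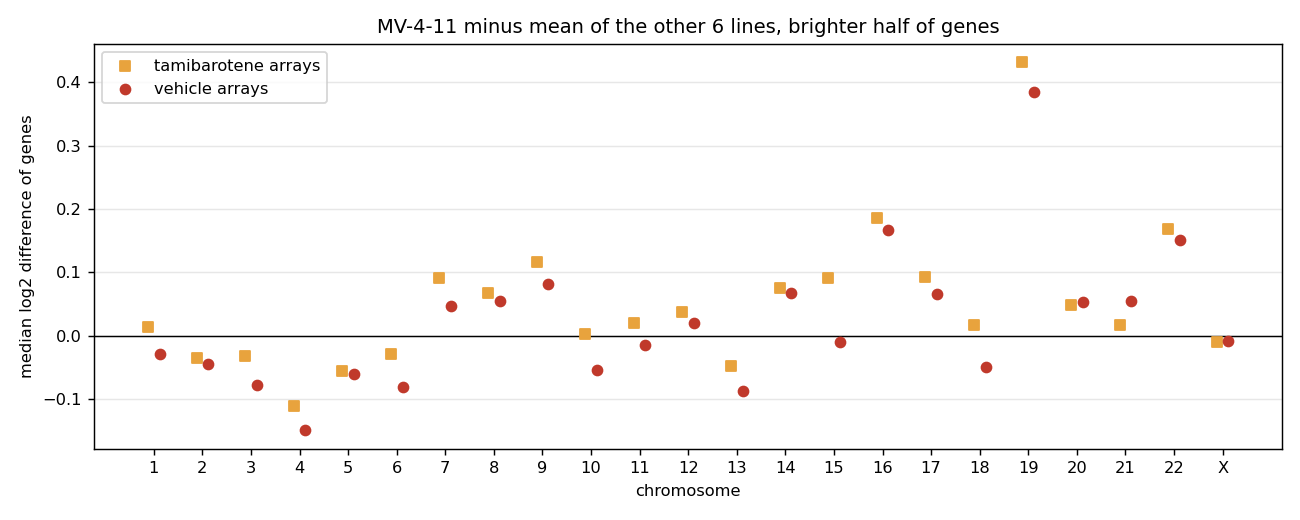
Median log2 difference, MV-4-11 minus the mean of the other 6 lines, of the genes brighter than the median gene on each chromosome, for tamibarotene arrays (squares) and vehicle arrays (circles). Chromosome 19 stands highest in both arms, at 0.43 and 0.38, and the next highest vehicle value is 0.17 on chromosome 16.

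The tamibarotene arrays, which took no part in the choice of genes, gave a second reading of these differences in the same lines. There, MV-4-11 was higher than the mean of the other lines at 795 genes (4.38%) and lower at 668 (3.68%), and 99 (0.546%) and 48 (0.265%) genes were above and below every line. Of the 92 genes above every line with vehicle, all had the same sign with the drug, 84 were called higher and 62 were again above every line. Of the 55 below every line, 53 had the same sign, 51 were called lower and 36 were again below every line. The 14 genes farthest above were all again above every line. Of the 10 farthest below, SPATS2 alone was not, since its MV-4-11 arrays reached 6.13 to 6.14 with the drug, against 4.36 to 4.50 with vehicle.

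The size of the difference itself changed with the drug at some of these genes, by the test of the interaction in a fit of all 39 arrays (limma, adjusted p under 0.05). Over all genes, the interaction was called upward at 509 (2.81%) and downward at 278 (1.53%). It was called at 9 of the 24 genes farthest outside the range. These genes were picked by their vehicle values, which also enter the interaction, so the choice favours a smaller difference with the drug. Of the 92 genes above every line it was called at 34, with a smaller difference at 23. Of the 55 below every line it was called at 16, with a smaller difference at 12. HPD read 9.64, 10.002 and 10.06 on the MV-4-11 tamibarotene arrays, against 6.91, 6.75 and 7.12 on its vehicle arrays, and its difference from the other lines was larger by 2.21. For CD38 the direction turned: MV-4-11 was above the mean of the other lines by 1.92 with the drug and below it by −2.33 with vehicle. ITGA6 and the retinoid enzyme gene DHRS3 turned too. GPR183 went from 2.67 with vehicle to −0.41 with the drug, which is under 2-fold. The vehicle call of DHRS3 ended with its probe sets averaged (−0.84).

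**Figure D5:**
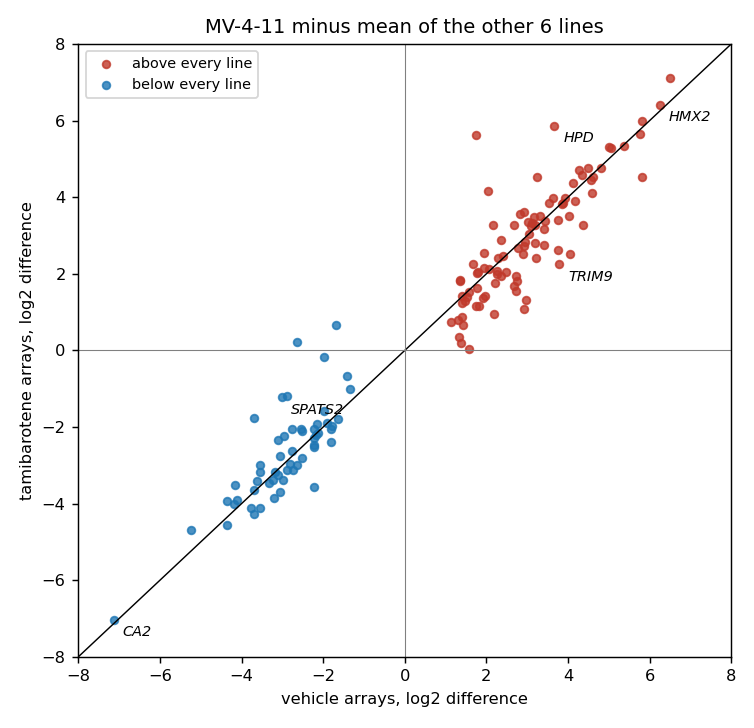
Log2 difference of MV-4-11 from the mean of the other 6 lines on tamibarotene arrays (vertical) and vehicle arrays (horizontal) for the 92 genes above (red) and 55 genes below (blue) every other line, with the line of equality. All 92 and 53 of the 55 keep their sign, and HPD lies above the line, at 5.87 and 3.66.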

How the data were processed

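Cultures of 7 leukemia lines, treated with tamibarotene or vehicle, had been hybridised to Affymetrix PrimeView arrays. The authors deposited log2 intensities from RMA (affy), as the submitters' processing notes name it. Its version and a genome build were not given in the sources used here. Of 49395 probe sets, 44988 carried a single gene symbol, 1832 several, 2473 none and 102 were controls and those of a single symbol were used with the deposited values unchanged.

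Limma 3.58.1 in R 4.3.3 (with the package data.table, 1.17.8) fitted a mean for each line on the 18 vehicle arrays, with moderated tests of MV-4-11 minus the mean of the other lines and minus each line. The 21 tamibarotene arrays were fitted alike, and all 39 together for the interaction. Figures were drawn with matplotlib 3.10.9 in Python 3.11.15. The fit was tested on simulated data. Array number limits the precision.

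Genes were named as the 14 above and 10 below every line with the largest gap, up to 4 called members of each list by size, the 4 largest differences each way from the nearest line, the 3 leading genes of each pair of lines, and a fixed set of marker genes. Some further list members and cell type markers are mentioned in the text but were not followed gene by gene under other settings. Genes with LOC, orf or clone names were counted only. PITX1, DLX2, MEIOB and PIWIL4 were named after their values were seen. Members and lists were chosen with earlier results of these data known. Replicate numbers are shared between lines. Deviations of 46 same-numbered pairs correlated between −0.69 and 0.70 (median −0.009, 7 over 0.1), so the numbers were not taken to pair arrays. Alternatives left out each array or line, dropped the minimum fold or gap, averaged the probe sets of a gene, and added the actin ratio, array weights or the replicate number as terms.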

Additional observations from a re-analysis of the deposited data

Results flagged for a closer look

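The difference of MV-4-11 from the mean of the other 6 lines changed between tamibarotene and vehicle arrays at 44 of 145 named genes. The test was limma's interaction (adjusted p of 0.0457 or less). Over all 18132 genes tested, the interaction was called upward at 2.81% and downward at 1.53%. Most named genes were picked by their vehicle values. These values also enter the interaction, so the choice favours a smaller difference with the drug. Bracketed values are the log2 difference with the drug minus that with vehicle, so a positive one means that MV-4-11 stood higher against the other lines with the drug. No cause was tested, and the tamibarotene arrays of MV-4-11 and of the other lines both enter each value.

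At 8 genes the sign of the difference changed. With the drug the difference was under 2-fold at PHLDA1, MEIS2, GPR183, IGLL1 and PRG2. CD38 differed by 1.92 with the drug and −2.33 with vehicle, a change of 4.26. ITGA6 differed by 2.46 with the drug and −1.94 with vehicle, a change of 4.40. DHRS3 differed by 1.51 with the drug and −1.91 with vehicle, a change of 3.43. PHLDA1 differed by 0.79 with the drug and −1.37 with vehicle, a change of 2.16. MEIS2 differed by 0.16 with the drug and −1.52 with vehicle, a change of 1.67. GPR183 differed by −0.41 with the drug and 2.67 with vehicle, a change of −3.09. IGLL1 differed by −0.44 with the drug and 1.71 with vehicle, a change of −2.14. PRG2 differed by −0.32 with the drug and 1.40 with vehicle, a change of −1.72. CD38 and DHRS3 are known as genes that retinoic acid induces.

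Of the genes farthest outside the range, the difference changed at HPD (2.21), APOC2 (0.61), PKIB (−1.28), TRIM9 (−1.54) and KCNK10 (−0.51) above every line and at SPATS2 (1.79), RNF135 (0.64), PPT2 (0.56) and TRIM32 (0.54) below every line. Among immune genes it became more positive at CCL23 (2.22), IFI30 (1.91), CHI3L1 (1.79), CXCL8 (0.83), LY96 (0.54) and IFITM1 (0.46) and more negative at NOD2 (−1.67), CXCR4 (−0.73), FCER1A (−1.58), RNASE2 (−1.32) and BCL2A1 (−0.74). Among regulators and signaling genes it changed at GATA2 (−2.08), EGR1 (0.88), SPRY2 (0.73) and ID1 (0.97). Enzymes of retinoid and nucleotide metabolism were DHRS9 (−0.75) and SAMHD1 (1.20). Among genes shared with 1 other line it changed at THBD (1.39), TREM2 (1.03), ARHGAP44 (1.52), TTC28 (0.96), TLE1 (−1.09), PROK2 (−0.76) and ABCB10 (−1.40). The others were DAPK1 (1.14), RNASE1 (−0.49) and DLX2 (−0.65).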

How the results depend on the processing

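Against the mean of the other lines, all 24 genes farthest outside the range kept direction and call under each of 32 alternative settings. The smallest difference from that mean was 1.78. Whether each of them stayed outside the range was not followed gene by gene. Of 145 named genes, 104 kept direction and call against the mean under each setting. EPCAM, at −1.004 with all lines, reversed to 0.055 without Kasumi-1 and 0.074 without Sig-M5 and Kasumi-1. MV-4-11 averaged 2.92 at this gene and Kasumi-1 9.22.

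With no minimum fold, 3232 genes were higher and 2878 lower, and 7164 and 6876 probe sets. Genes above every line numbered 159 with no minimum gap and 147 without NOMO-1, which was the nearest line for 26 of the 92. Genes below every line numbered 103 without Sig-M5 and Kasumi-1. With the replicate block, 714 genes were higher and 764 lower, 1566 and 1684 probe sets, and 91 genes lay above and 54 below every line. Averaging probe sets gave 599 higher and 519 lower.

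Leaving out 1 array at a time gave 699 to 769 genes higher and 705 to 1010 lower, and 1520 to 1665 and 1505 to 2208 probe sets. Genes above every line ranged from 85 to 99 and below from 47 to 57. Totals ranged from 1333 to 1527 against OCI-AML3, 1907 to 2408 against NOMO-1, 2411 to 2707 against Kasumi-1, 2465 to 2573 against KG-1a, 2948 to 3391 against OCI-M1 and 3609 to 4125 against Sig-M5. On tamibarotene arrays 780 to 821 were higher and 624 to 820 lower. With array weights, where the fit gave a convergence warning, 734 were higher and 930 lower.

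Line means rest on 2 or 3 arrays, no detection call was used, and a dim probe set may hide differences. Without the second MV-4-11 array, ORM1 (−0.96) and TET1 (−0.996) were no longer called. Of the 32 settings, ORM1 lost its call in 6 and TET1 in 8. Without Sig-M5 and Kasumi-1, calls ended at ORM1 (−0.85), TET1 (−0.74), IFI30 (0.20) and SAMHD1 (0.91).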
